A study of Homo sapiens with 10 samples.

Results

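The genes examined were 9 that make, cut or bind hyaluronan. They were the synthases HAS2 and HAS3, the precursor enzyme UGDH, the hyaluronan-degrading genes HYAL2, HYAL3, CEMIP and CEMIP2, and the receptors CD44 and HMMR. All 9 were found among the 58395 genes of the count files, and all 9 were among the 16905 genes with enough counts to be tested, CEMIP only through the siGGGGGC libraries. They were chosen by function with the fold changes of these same libraries known, the low HAS2 counts among them, so their values are given as descriptions without a test. Counts of members past a threshold stand beside the share of all genes past it, and nothing is read from either.

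RNA-seq was done on HeyA8, a line of human ovarian cancer cells derived from Hey cells, after transfection with siRNA duplexes that differ in the 6mer seed of the guide strand. The study compared siRNAs whose seeds are toxic to cancer cells with a control duplex. siNT1 was the non-targeting control, siGGGGGC (siMxy in the sample titles) and siGGCAGU (si34a in the titles) are named after guide positions 2 to 7, and siGGCAGU has the seed of miR-34a-5p. Every library came from cells given 10 nM of duplex. The methods list the passenger strand of every duplex, siNT1 included, with the same chemically modified first bases. The label of siNT1 adds S2'OM to its name. The 5 groups were siNT1 at 24 h, siGGGGGC at 24 h, siNT1 at 48 h, siGGCAGU at 48 h and siGGGGGC at 48 h, with 2 libraries each. No untransfected cells were analysed here, and siGGCAGU was analysed at 48 h alone. Wells lysed at 48 h had their medium changed at 24 h, so time and fresh medium cannot be told apart between the times. The duplicates were wells of a transfection of 1 cell line, so p-values measure the spread between wells and libraries.

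Hyaluronan is a long, unbranched sugar polymer of the extracellular matrix. Synthases of the plasma membrane (HAS1, HAS2 and HAS3) join UDP-glucuronate and UDP-N-acetylglucosamine and extrude the chain, and UGDH makes the UDP-glucuronate. Hyaluronidases and the CEMIP proteins cut the chain, CD44 binds it at the cell surface, and HMMR, first described as a hyaluronan-binding motility protein, also works at the mitotic spindle. In ovarian cancer, hyaluronan and CD44 are known for their part in the attachment of tumor cells to the peritoneum.

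The libraries held 19781445 to 42428986 counts, of which the small RNA genes RN7SL2 and SNORD3A took 19.8% to 32%. Replicates of each group differed beyond counting noise, and more so at 48 h. Over the genes tested, the chi-square per degree of freedom between replicates was 2.19 with siNT1 and 3.15 with siGGGGGC at 24 h. At 48 h it was 31.4 with siNT1, 40 with siGGCAGU and 10.3 with siGGGGGC. The SEs below come from 1 fit of all groups and do not show this difference. The epithelial keratins KRT8 and KRT18 and the mesenchymal gene VIM were present in every library. The keratin KRT19 and the epithelial adhesion genes EPCAM and CDH1 reached no more than 0.747, 0.643 and 0.122 CPM per kb of exon. CPM is the count scaled to library size with TMM factors, and dividing it by exon length lets genes be compared. Of 4 ovarian carcinoma markers, PAX8, WT1 and MSLN were present in every library, at 84 to 1142, 31 to 191 and 21 to 140 counts, whereas MUC16, the antigen CA-125, had 0 counts in 4 libraries and at most 0.027 CPM per kb. The summed level of 5 epithelial markers, nearly all of it KRT8 and KRT18, was 42 to 45.1 with siGGGGGC and 113 to 115 with siNT1 at 48 h. In the same groups the 4 ovarian carcinoma markers summed to 1.09 to 1.22 and 5.13 to 5.52, and 4 mesenchymal markers to 168 to 173 and 298 to 313. The part of these in the results was not tested. Leukocyte, endothelial and fibroblast lists summed to at most 0.0754, 0.443 and 0.353 in any library. In bulk RNA, fewer cells of a state and less RNA per cell cannot be told apart.

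An siRNA or miRNA guide pairs through its seed with complementary words in the 3′ UTR of an mRNA. The word for siGGGGGC is GCCCCC and that for siGGCAGU is ACTGCC, written as DNA. Natural miRNAs with these seeds share guide positions 2 to 7 with the duplexes. At position 8 both toxic duplexes have an A in the guide, which none of these miRNAs has. Mature sequences from RefSeq (GRCh38.p14) are given 5′ to 3′, with positions 2 to 8 in capitals.
hsa-miR-34a-5p: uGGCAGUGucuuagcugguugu
hsa-miR-449a: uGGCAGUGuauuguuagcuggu
hsa-miR-449b-5p: aGGCAGUGuauuguuagcuggc
hsa-miR-548au-3p: uGGCAGUUacuuuugcaccag
hsa-miR-4488: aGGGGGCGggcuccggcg
hsa-miR-1237-5p: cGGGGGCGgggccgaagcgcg
The first 4 hold the seed GGCAGU at positions 2 to 7, and the other two hold GGGGGC. The position after the 6mer differs within the first 4, where hsa-miR-548au-3p departs from the miR-34 and miR-449 sequences.

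The longest annotated 3′ UTR of each member (GENCODE 44, hg38) was searched on the transcribed strand for these words. GCCCCC was found once each in HAS3, HYAL2 and CEMIP, and ACTGCC once each in HAS3, HYAL3, CD44 and HMMR. HAS2 (3′ UTR of 1993 bases), UGDH (1388 bases) and CEMIP2 (1831 bases) held neither word, which says only that these letters are not in these windows. Of 19248 protein-coding genes, 30.2% held GCCCCC and 32.7% held ACTGCC. The word for the siNT1 seed, CGACTA, was in none of the 9 members and in 2.74% of genes. In the shortest annotated 3′ UTRs, 1 member held GCCCCC (HYAL2) and 1 held ACTGCC (HYAL3). The matches are printed in their surroundings because the members that hold them did not all move in the same direction. Capitals mark the 6mer match, and each window is given 5′ to 3′ on the strand of the gene.
HAS3, chr16:69115267-69115288, + strand, GCCCCC: catgGCCCCCaagcagagcggg
HAS3, chr16:69115487-69115516, + strand, ACTGCC: ctgtgttttcagACTGCCtgtctgcttgca
HYAL2, chr3:50318005-50318034, − strand, GCCCCC: ggagtgggcagaGCCCCCaggaagcccagg
CEMIP, chr15:80950233-80950262, + strand, GCCCCC: tggggaaagtgaGCCCCCaagatgggaaag
HYAL3, chr3:50293212-50293241, − strand, ACTGCC: agggcccctgccACTGCCtcttcttttccc
CD44, chr11:35231216-35231245, + strand, ACTGCC: ctatgtgttgttACTGCCactagtgttcaa
HMMR, chr5:163491257-163491286, + strand, ACTGCC: tatttaattttaACTGCCaatccttaaata
The 3 GCCCCC matches were followed by an A (7mer-A1). The CD44 match was also preceded by the base that extends pairing to guide position 8 and followed by an A (8mer), the HMMR match was a 7mer-A1, and those of HAS3 and HYAL3 to siGGCAGU were 6mers.

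**Figure D1:**
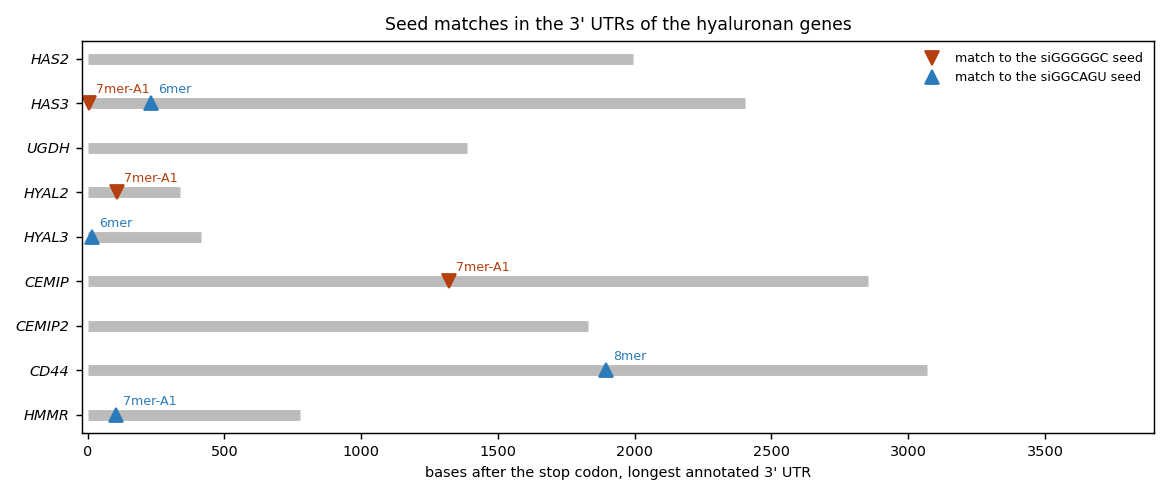
Map of the longest annotated 3′ UTR of each member (grey bars, in bases after the stop codon), with matches to the siGGGGGC seed (red) and to the siGGCAGU seed (blue). HAS3 holds both words, at 5 and 233 bases, and HAS2, UGDH and CEMIP2 hold neither.

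HAS2 (ENSG00000170961, hg38 chr8:121612116-121641440, − strand), the main synthase of many connective tissue and tumor cells, was much lower with both siRNAs. Counts normalised to library size (TMM) were 1166 and 1241 with siNT1 and 118.4 and 143 with siGGGGGC at 24 h. At 48 h they were 2502 and 2829 with siNT1, 289 and 303.5 with siGGCAGU, and 120.7 and 107.7 with siGGGGGC. Both libraries of each siRNA lay below both siNT1 libraries of the same time, with no overlap. The log2 fold change was -3.20 (SE 0.124) with siGGGGGC at 24 h, a 9.20-fold difference. At 48 h it was -4.55 (SE 0.121) with siGGGGGC, or 23.4-fold, and -3.17 (SE 0.108) with siGGCAGU, or 8.97-fold. The 48 h comparisons share the siNT1 libraries. In the siNT1 libraries HAS2 was 2.22-fold higher at 48 h than at 24 h, whereas the siGGGGGC group means at the same times were 131 ± 17.4 and 114 ± 9.21 (SD, n = 2). Time and the medium change at 24 h cannot be told apart here. HAS2 was 2.60-fold lower with siGGGGGC than with siGGCAGU at 48 h. Leaving out any 1 library kept its log2 fold changes between -3.34 and -3.07 at 24 h and between -4.63 and -4.45 with siGGGGGC at 48 h.

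HAS2-AS1, a natural antisense RNA of HAS2, was low throughout, and its values were singled out after they were seen. Its raw counts were 26 and 9 with siNT1 and 2 and 2 with siGGGGGC at 24 h. The counts at 48 h were 50 and 87 with siNT1, 8 and 11 with siGGCAGU, and 2 and 0 with siGGGGGC. The antisense gene was below its controls in all 6 treated libraries, with adjusted p = 0.0106, 0.000278 and 7.06e-06 for siGGGGGC at 24 h, siGGCAGU at 48 h and siGGGGGC at 48 h (edgeR quasi-likelihood test, Benjamini-Hochberg). The call at 24 h was lost without siNT1 replicate 1 or either siGGGGGC library. Its exons cover 5.92% of the HAS2 exons on the other strand, and since the strand setting of the counting was not stated, reads of that stretch cannot be told apart. The highest normalised count of HAS2-AS1 was 49.8, and how far reads of either gene were counted for the other was not tested.

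HAS3 (ENSG00000103044, chr16:69105653-69118719, + strand), a synthase known for shorter chains, was a low gene that moved otherwise than HAS2. Its normalised counts were 27.4 and 18.3 with siNT1 and 44.8 and 58.6 with siGGGGGC at 24 h. At 48 h they were 37.2 and 25.8 with siNT1, 113.8 and 117.5 with siGGCAGU, and 19 and 33.1 with siGGGGGC. HAS3 was thus higher with siGGCAGU and with siGGGGGC at 24 h, and overlapped the controls with siGGGGGC at 48 h. The log2 fold changes were 1.16 (SE 0.335) with siGGGGGC at 24 h, -0.23 (SE 0.308) with siGGGGGC at 48 h and 1.90 (SE 0.242) with siGGCAGU. The value at 24 h ran from 0.91 to 1.49 over the alternatives and was no longer past the thresholds without siNT1 replicate 1 or 2 or siGGGGGC replicate 2. The longest 3′ UTR of HAS3 holds the ACTGCC 6mer printed above, which 45% of 3′ UTRs of similar length hold. The word is in 2 of its 3 annotated 3′ UTRs. Which of these the cells used, and the part of the word in the HAS3 values, was not tested. CHTF8 on the other strand overlaps 7.02% of its exons and had normalised counts of 207.3 to 501.1, so the low HAS3 counts are uncertain.

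HAS1 had at most 2 counts in any library, so the synthase mRNA was that of HAS2 and HAS3. In CPM per kb of exon, the summed synthase level was 10.8 and 11.4 with siNT1 at 24 h and 23 and 25.9 at 48 h. It was 1.43 and 1.73 with siGGGGGC at 24 h, 1.24 and 1.22 with siGGGGGC at 48 h, and 3.51 and 3.64 with siGGCAGU. HAS2 made up 97.9% to 99.2% of it in the 4 siNT1 libraries, 74.7% and 75.7% with siGGCAGU, 75.1% and 74.9% with siGGGGGC at 24 h, and 88.6% and 79.9% with siGGGGGC at 48 h. With siGGCAGU, where HAS3 was highest, the summed level was still below that of both controls.

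**Figure D2:**
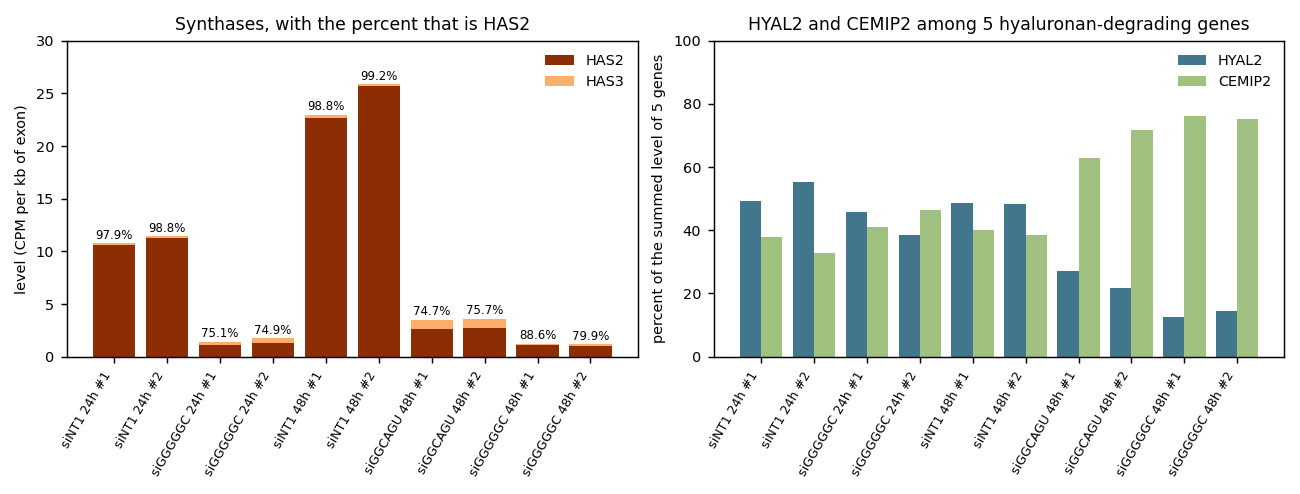
Left, summed level of HAS2 and HAS3 in each library (CPM per kb of exon, bars stacked), with the percent contributed by HAS2 above each bar. Right, HYAL2 and CEMIP2 as percent of the summed level of HYAL1, HYAL2, HYAL3, CEMIP and CEMIP2, where CEMIP2 is 62.8% to 76.2% in the 4 treated libraries at 48 h and 32.8% to 40.1% with siNT1. Levels are per kb of all annotated exons, and the percents depend on that length.

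UGDH (ENSG00000109814, chr4:39498755-39528311, − strand), which oxidizes UDP-glucose to the UDP-glucuronate that all synthases use, differed little. Its normalised counts were 547.7 and 585.3 with siNT1 and 535.6 and 511.9 with siGGGGGC at 24 h. The counts at 48 h were 718 and 697.7 with siNT1, 715.4 and 789.1 with siGGGGGC, and 755.9 and 1276 with siGGCAGU. The siGGCAGU replicates stood far apart. The log2 fold change with siGGCAGU of 0.54 (SE 0.162) became 0.10 without replicate 2 and 0.85 without replicate 1. With siGGGGGC it was -0.11 (SE 0.178) at 24 h and 0.09 (SE 0.164) at 48 h. The antisense gene UGDH-AS1, which covers 12.7% of the UGDH exons, had at most 18.3 normalised counts.

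HYAL2 (ENSG00000068001, chr3:50317790-50322782, − strand), a hyaluronidase anchored at the cell surface that cuts long chains, was lower with siGGGGGC at 48 h. Its normalised counts were 368.7 and 446.5 with siNT1 and 428.7 and 320.3 with siGGGGGC at 24 h. By 48 h they were 378 and 381 with siNT1, 299.5 and 215.7 with siGGCAGU, and 93.9 and 110.8 with siGGGGGC. The groups overlapped at 24 h and were apart at 48 h, where siGGGGGC was the lowest. The log2 fold changes were -0.12 (SE 0.166) at 24 h and -1.89 (SE 0.181) at 48 h with siGGGGGC, and -0.58 (SE 0.161) with siGGCAGU. The 24 h value ranged from -0.35 to 0.07 over the alternatives, and the siGGCAGU value from -0.81 to -0.34 when a siGGCAGU library was left out. The 3′ UTR of HYAL2, 339 bases long, holds the GCCCCC match printed above, which 17.4% of 3′ UTRs of similar length hold. TUSC2 on the same strand shares 11.5% of the HYAL2 exons, and how reads of that stretch were assigned was not tested. Its own log2 fold changes were -0.43 (SE 0.163) at 24 h and -0.05 (SE 0.149) at 48 h with siGGGGGC, and 0.91 (SE 0.143) with siGGCAGU.

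HYAL3 (ENSG00000186792, chr3:50292831-50299405, − strand), a neighbor of HYAL2 whose own activity is less certain, was low. Normalised counts were 25.1 and 23.6 with siNT1 and 37.5 and 38.6 with siGGGGGC at 24 h, a log2 fold change of 0.64 (SE 0.324). The 48 h values were 25.6 and 25.2 with siNT1, 34 and 19.3 with siGGCAGU, and 23.5 and 24.9 with siGGGGGC. The log2 fold changes at 48 h were -0.07 (SE 0.300) with siGGGGGC and -0.01 (SE 0.287) with siGGCAGU, and the latter turned from -0.39 to 0.42 with the library left out. NAA80 and IFRD2 on the same strand share 11.8% and 2.19% of its exons, so its counts are uncertain.

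CEMIP (ENSG00000103888, chr15:80779343-80951776, + strand), needed for the breakdown of hyaluronan in skin fibroblasts, was close to the limit of detection. Its 10 libraries held 2 to 14 raw counts each. Normalised counts were 4.8 and 2.6 with siNT1 and 11.5 and 12.9 with siGGGGGC at 24 h. By 48 h they were 7.7 and 3.4 with siNT1, 2.6 and 1.5 with siGGCAGU, and 10.1 and 14.5 with siGGGGGC. It reached the count minimum in 2 libraries, 1 of each siGGGGGC group, so a gene kept by this filter had to be higher there. Counting error alone is large at such depth. The log2 fold changes were 1.67 (SE 0.648) and 1.19 (SE 0.496) with siGGGGGC at 24 and 48 h and -1.43 (SE 0.725) with siGGCAGU. At 48 h, leaving out siNT1 replicate 1 gave 1.81 and -0.81, and leaving out replicate 2 gave 0.66 and -1.95, and the values 1.81 and -1.95 were then past both thresholds.

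CEMIP2 (ENSG00000135048, chr9:71683366-71816690, − strand), a transmembrane relative of CEMIP described as a cell-surface hyaluronidase, was higher in all treated groups. Normalised counts were 594.3 and 553.8 with siNT1 and 805.5 and 810.8 with siGGGGGC at 24 h. The 48 h values were 652.1 and 635.3 with siNT1, 1444 and 1496 with siGGCAGU, and 1203 and 1201 with siGGGGGC. No treated library overlapped a control. The log2 fold changes were 0.49 (SE 0.0899) at 24 h and 0.90 (SE 0.0845) at 48 h with siGGGGGC, and 1.19 (SE 0.0842) with siGGCAGU. Among the 5 hyaluronan-degrading genes measured, HYAL1 included, the summed level in CPM per kb stayed between 6.51 and 9.57 in all libraries. Its makeup differed. HYAL2 was 48.4% to 55.3% of it with siNT1 but 12.4% and 14.5% with siGGGGGC at 48 h, where CEMIP2 was 76.2% and 75.3%. The sum and the shares divide by all annotated exons, 9254 bases for CEMIP2 and 4421 for HYAL2. The longest transcripts have 6152 and 4054 bases, so the sum and the shares depend on the length used. Neither was computed with the longest transcripts.

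CD44 (ENSG00000026508, chr11:35138882-35232402, + strand), the principal cell-surface receptor of hyaluronan, kept a high level in every group. Its normalised counts were 6131 and 6109 with siNT1 and 5998 and 6060 with siGGGGGC at 24 h. At 48 h they were 10519 and 7075 with siNT1, 6586 and 6282 with siGGCAGU, and 6105 and 6482 with siGGGGGC. The first siNT1 library at 48 h stood above the other 9 libraries, and it was also the one with the largest TMM factor, 1.20. With it, the log2 fold changes at 48 h were -0.48 (SE 0.132) with siGGGGGC and -0.45 (SE 0.132) with siGGCAGU. Without it they were -0.17 and -0.14. The 8mer match for siGGCAGU printed above, a word that 52.4% of 3′ UTRs of similar length hold, is in 2 of the 10 annotated 3′ UTRs of CD44.

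HMMR (ENSG00000072571, chr5:163460203-163491941, + strand), which binds hyaluronan and microtubules, was lower with siGGCAGU but not with siGGGGGC. Its normalised counts were 2396 and 2553 with siNT1 and 3693 and 3745 with siGGGGGC at 24 h. The 48 h values were 1709 and 1813 with siNT1, 537.5 and 382.3 with siGGCAGU, and 2003 and 1987 with siGGGGGC. Both siGGCAGU libraries were below the other 8, and both siGGGGGC libraries at 24 h were above the other 8. The log2 fold changes were 0.59 (SE 0.113) at 24 h and 0.18 (SE 0.113) at 48 h with siGGGGGC, and -1.96 (SE 0.123) with siGGCAGU. The 7mer-A1 match to siGGCAGU in its 3′ UTR is in 3 of 4 annotated forms, and 22.9% of 3′ UTRs of similar length hold the word.

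**Figure D3:**
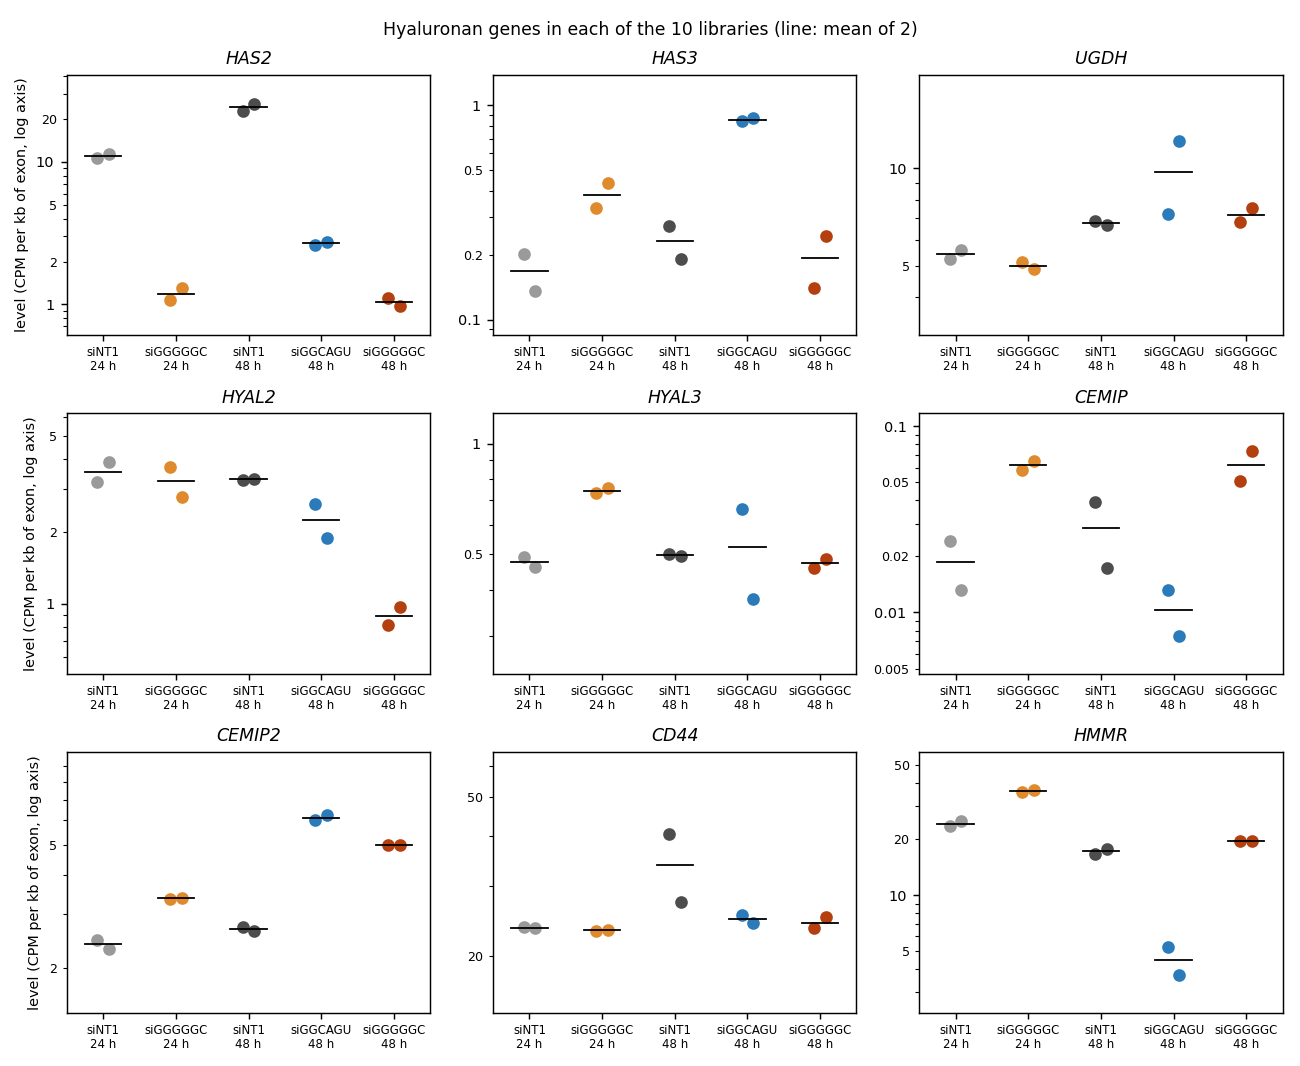
Level of each member in each of the 10 libraries, in CPM per kb of exon (log axis, own scale for each gene), with a line at the mean of 2 libraries. HAS2 lies between 0.978 and 2.75 in the 6 treated libraries and between 10.6 and 25.7 with siNT1, and CD44 at 48 h shows 1 high siNT1 library.

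By level in CPM per kb, HMMR at 24.2 ± 1.09 and CD44 at 23.6 ± 0.060 (SD, n = 2) came first with siNT1 at 24 h and overlapped. They were followed by HAS2 at 10.9, UGDH at 5.42, HYAL2 at 3.55, CEMIP2 at 2.39, HYAL3 at 0.476, HAS3 at 0.169 and CEMIP at 0.0187, none of which overlapped its neighbor. With siNT1 at 48 h the order began with CD44 at 33.9 ± 9.38, HAS2 at 24.2 ± 2.1 and HMMR at 17.2 ± 0.720. With siGGCAGU it was CD44 at 24.8, UGDH at 9.72 and CEMIP2 at 6.11, and HAS2 came after HMMR at 2.69. With siGGGGGC HAS2 stood below HYAL2 at 24 h, at 1.19, and below CEMIP2 at 48 h, at 1.04. The neighbors that overlapped in the treated groups were CEMIP2 and HYAL2 with siGGGGGC at 24 h, at 3.36 and 3.26. With the length of the longest transcript in place of all exons, 2 members changed rank in each siNT1 group.

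The term called stands for genes with an adjusted p below 0.05 whose log2 fold change was also beyond 1, in either direction. With siGGGGGC at 24 h, 2 members were past both (HAS2 lower and HAS3 higher), beside 3.72% of all genes tested. With siGGGGGC at 48 h there were 2 (HAS2 and HYAL2, both lower), beside 21.5% of genes, and with siGGCAGU 4 (HAS2 and HMMR lower, HAS3 and CEMIP2 higher), beside 20.3%. Between siGGGGGC and siGGCAGU at 48 h there were 5, beside 23% of genes. HAS2 (log2 fold change -1.38), HAS3 (-2.14) and HYAL2 (-1.30) were lower and HMMR (2.14) and CEMIP (2.62, SE 0.661) higher with siGGGGGC. The CEMIP call rests on a gene kept by its siGGGGGC counts alone, as described above, and was lost without siGGCAGU replicate 2. CD44 differed between the siRNAs by a log2 fold change of -0.03 (SE 0.133) and HYAL3 by -0.06 (SE 0.319). In the siNT1 libraries HAS2 alone was past both thresholds from 24 to 48 h, with a log2 fold change of 1.15 (SE 0.0967), beside 1.53% of genes. By the interaction term, the siGGGGGC difference changed between 24 and 48 h for 3 members (HAS2, HAS3 and HYAL2), beside 11.2% of genes. HAS3 was no longer past the thresholds with total counts, or without siNT1 or siGGGGGC replicate 2 at 24 h or siNT1 or siGGGGGC replicate 1 at 48 h, which left HAS2 and HYAL2. The libraries of the groups did not overlap for 8 members with siGGGGGC at 24 h, beside 62.7% of genes, for 7 at 48 h, beside 77.4%, and for 8 with siGGCAGU, beside 72.6%. The median log2 fold change over the 9 members was 0.49, -0.07 and -0.45 in these 3 comparisons, and 0.0035, -0.011 and 0.024 over all genes.

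**Figure D4:**
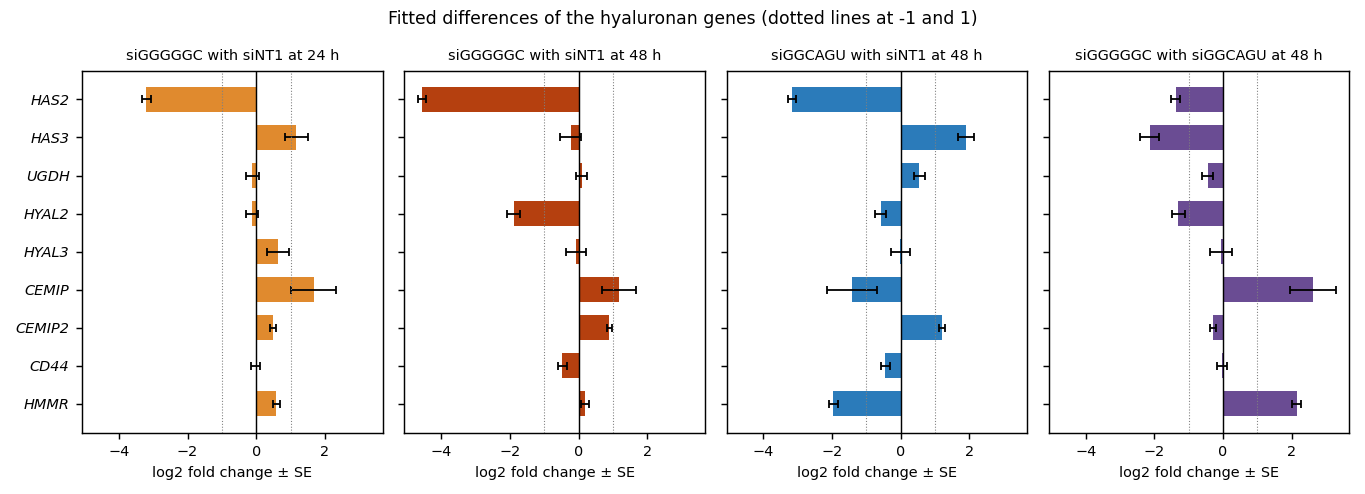
Fitted log2 fold change (± SE) of the 9 members in 4 comparisons, each siRNA with siNT1 and the siRNAs with each other at 48 h, with dotted lines at -1 and 1. HAS2 is at -3.20, -4.55, -3.17 and -1.38, and HMMR is lower with siGGCAGU and higher when siGGGGGC is set against it.

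Other genes of hyaluronan biology were taken from 9 lists of 75 genes, of which 54 were tested. The lists were chosen with earlier results of these data known, so their p-values are no independent evidence. In these lists 0 genes were called higher and 2 lower with siGGGGGC at 24 h, beside 3.72% of all genes. There were 6 higher and 6 lower with siGGGGGC at 48 h, beside 21.5%, and 5 higher and 9 lower with siGGCAGU, beside 20.3%, so the lists were close to the background. Called genes whose mean count was under 100, and those beyond the 2 largest changes each way in a list, were named after their values were seen. Adjusted p-values are those of the edgeR quasi-likelihood test, adjusted by Benjamini-Hochberg over all genes tested. The shares of all genes called also stand beside the counts of each list below. At an unadjusted p below 0.05 the share of all genes was not computed, so nothing is read from those counts.

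The precursor sugars of hyaluronan are made from glucose by a short series of enzymes. The list held 10 genes of UDP-sugar supply and use, all tested. Of these, 2 were called higher and 0 lower with each siRNA at 48 h, and 0 at 24 h (edgeR, with 3 at an unadjusted p below 0.05 and 0 called by DESeq2). GFPT2, an amidotransferase of the first step of hexosamine synthesis, rose from 159 and 160 to 718 and 759 normalised counts with siGGCAGU (log2 fold change 2.21, adjusted p = 4.08e-10). With siGGGGGC it rose to 359 and 414 (1.28, adjusted p = 2.21e-07). UXS1, which turns UDP-glucuronate into UDP-xylose, rose by 1.11 with siGGCAGU and 1.14 with siGGGGGC (adjusted p = 6.25e-07 and 5.58e-07), and without TMM factors its values were 0.96 and 0.98, short of the threshold. Without siGGCAGU replicate 2 the former was 0.99. Between the siRNAs, PGM3 was lower with siGGGGGC, at a log2 fold change of -1.20 and an adjusted p of 1.39e-07. At adjusted p below 0.05 alone, 6 of the 10 were higher and 2 lower with siGGCAGU, and 3 higher and 6 lower with siGGGGGC at 48 h, beside 52.7% and 55.3% of all genes in either direction. Among those lower with both were GNPNAT1 and UAP1, named after their values were seen. Their log2 fold changes were -0.90 and -0.93 with siGGGGGC at 48 h and -0.73 and -0.28 with siGGCAGU.

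Among 8 tested users of UDP-glucuronate in the synthesis of sulfated chains, CSGALNACT2, a chondroitin sulfate starter enzyme, was called with siGGGGGC at 48 h. It rose from 203 and 215 to 512 and 563 normalised counts (log2 fold change 1.37, adjusted p = 1.58e-07). With siGGCAGU and with siGGGGGC at 24 h 0 of the 8 were called by edgeR or by DESeq2, while 6 and 5 had an unadjusted p below 0.05. CHSY1, the chondroitin synthase, was higher with siGGGGGC than with siGGCAGU by 1.61 (adjusted p = 8.66e-09), and CSGALNACT2 by 1.32 (adjusted p = 2.63e-07). Of the lysosomal genes that break down fragments, GUSB had a log2 fold change of -1.13 with siGGCAGU (adjusted p = 1.56e-05), or -0.91 without siGGCAGU replicate 1, and HEXA was not called.

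Hyaluronan-binding matrix proteins had 6 tested genes of 16, and their changes went both ways. VCAN, the large proteoglycan versican, fell from 245 and 331 normalised counts with siNT1 at 48 h to 31.2 and 35.3 with siGGCAGU and to 39.1 and 53.8 with siGGGGGC. Its log2 fold changes were -3.12 and -2.62 (adjusted p = 1.13e-08 and 5.68e-08). The link protein HAPLN1 also fell, with log2 fold changes of -1.29 with siGGCAGU and -2.56 with siGGGGGC (adjusted p = 2e-04 and 1.57e-06). PTX3, a pentraxin that cross-links hyaluronan in the cumulus matrix, rose from 561 and 679 to between 3630 and 5700 in the 4 treated libraries. Its log2 fold changes were 2.63 with siGGCAGU and 3.11 with siGGGGGC (adjusted p = 7.02e-11 and 1.91e-11). HAPLN3 was called lower with siGGCAGU (-2.16, adjusted p = 0.00123) and ITIH2, at a mean of 6.63 counts, higher with siGGGGGC (1.61, adjusted p = 0.0302). The ITIH2 call was lost under 5 alternatives. Among them were DESeq2 and leaving out siNT1 replicate 1 (0.89) or siGGGGGC replicate 2 (1.23) at 48 h.

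Proteins that bind, anchor or cut CD44 went in both directions, with 9 of 11 tested. ADAM17, a sheddase of the cell surface, rose from 879 and 960 to 2310 and 2470 with siGGCAGU and to 3070 and 3160 with siGGGGGC (log2 fold changes 1.38 and 1.76, adjusted p = 3.98e-09 and 3.56e-10). MMP14, a membrane protease that cuts CD44, fell with siGGGGGC at 48 h by 1.45 on the log2 scale (adjusted p = 3.25e-09). Between the siRNAs it was lower with siGGGGGC by -2.08 (adjusted p = 7.69e-11). MSN (moesin), which ties CD44 to actin, fell by 1.00 with siGGGGGC at 48 h (adjusted p = 3.58e-07), at the threshold. It was at -0.96 without siNT1 replicate 2 and at -0.94 without siGGGGGC replicate 2. The MSN call was lost under 4 alternatives, DESeq2 among them. SPP1 (osteopontin), a secreted CD44 ligand, fell by 1.05 with siGGGGGC at 24 h (adjusted p = 5.61e-05), was at 2760 and 2950 against 2440 and 3020 counts at 48 h, and rose by 1.73 with siGGCAGU (adjusted p = 9.95e-09). The 24 h value of SPP1 was -0.94 without siNT1 replicate 2 and -0.92 without siGGGGGC replicate 2, short of the threshold. NF2 was lower with siGGGGGC than with siGGCAGU by -1.03 (adjusted p = 2.92e-06), or -0.91 without siGGCAGU replicate 1.

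The spindle partners of HMMR were 7, all tested. With siGGCAGU, beside 20.3% of all genes called in either direction, 4 were called lower. They were TPX2 (-1.71, adjusted p = 4.6e-10), which HMMR helps to place on microtubules, AURKA, the kinase that TPX2 activates (-1.57, adjusted p = 8.67e-10), the kinesin KIF15 (-1.77, adjusted p = 9.3e-09) and BARD1 (-1.57, adjusted p = 8.95e-09). With siGGGGGC 0 were called at 24 h by edgeR or DESeq2, where 5 had an unadjusted p below 0.05 and 4 were higher at an adjusted p below 0.05 (beside 10.6% of genes higher), and AURKA alone was called lower at 48 h (-1.05, adjusted p = 6.09e-08). At an adjusted p below 0.05 alone, 5 of the 7 were lower and 1 higher with siGGGGGC at 48 h, beside 55.3% of genes in either direction, with a median of -0.71 over the list and -0.0114 over all genes. HMMR itself was not below its controls in either siGGGGGC group. TPX2, KIF15 and BARD1 were higher with siGGGGGC than with siGGCAGU at 48 h by 1.13, 1.06 and 1.49 (adjusted p = 3.43e-08, 3.55e-06 and 1.87e-08). The KIF15 value was 0.94 without siGGGGGC replicate 1.

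None of the 7 regulators of HAS2 transcription (SP1, SP3, YY1, STAT3, CREB1, RELA and NFKB1) was called in any comparison by edgeR or by DESeq2. At an unadjusted p below 0.05 there were 1 with siGGGGGC at 24 h, 2 at 48 h and 6 with siGGCAGU. At adjusted p below 0.05 without the fold, 0 were higher and 1 lower with siGGGGGC at 24 h, 1 higher and 0 lower at 48 h, and 2 higher and 4 lower with siGGCAGU, beside 18.9%, 55.3% and 52.7% of all genes. Of 7 other hyaluronan receptors and binding proteins 2 had enough counts, the receptor LAYN and the binding protein HABP4. Neither was called by edgeR or DESeq2. LAYN was at a log2 fold change of 0.70 with siGGCAGU (adjusted p = 3.74e-05). LYVE1 and STAB1, receptors of lymphatic and liver endothelium, had at most 1 and 8 counts in any library. HYAL1, the lysosomal hyaluronidase, had normalised counts of 9.3 to 30.9 and was not called, with adjusted p = 0.661, 0.0912 and 0.23 for siGGGGGC at 24 h and 48 h and siGGCAGU.

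**Figure D5:**
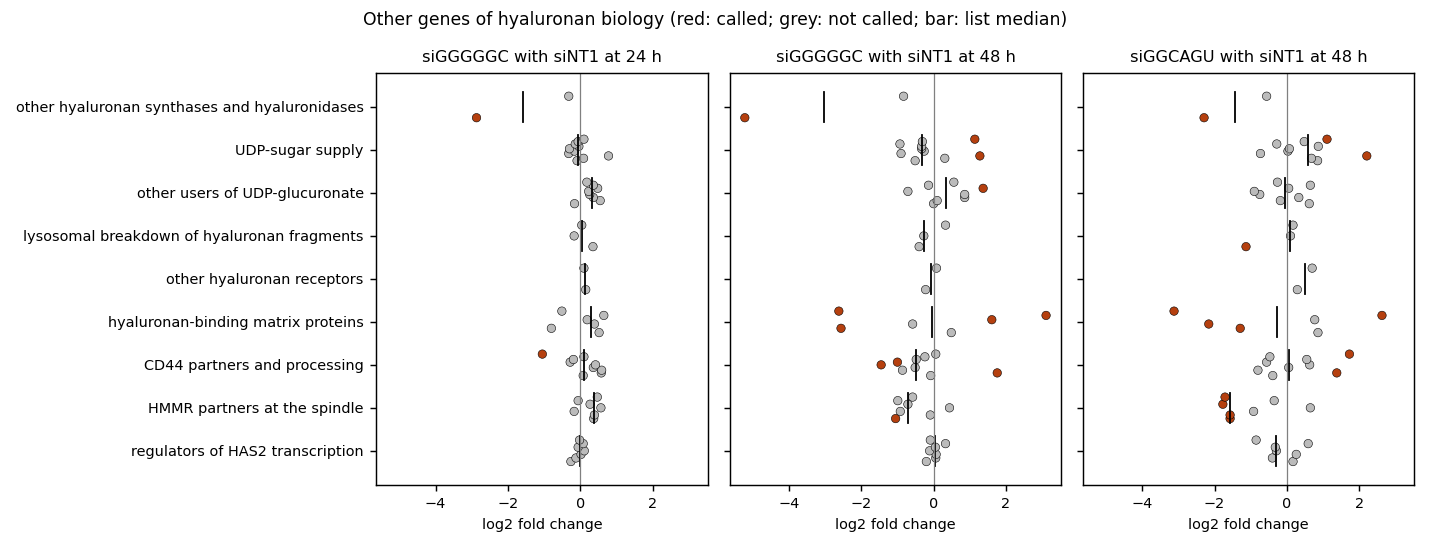
Log2 fold change of the 54 tested genes of 9 pathway lists in 3 comparisons with siNT1, 1 point per gene, red where called, with a bar at the median of each list. With siGGCAGU the bar of the spindle partners of HMMR is at -1.57, and that of the regulators of HAS2 transcription is at -0.29 with no point called.

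The genes whose log2 CPM followed a member most closely over the 10 libraries, by Pearson correlation among those with mean counts of 100 or more, were as follows. For HAS2 they were RRP1B (0.989), CDK16 (0.981) and FAM241A (0.975), for HAS3 RBM19 (0.971), PYROXD2 (0.963) and DOLK (0.9535), for CD44 PRKDC (0.966), ZC3H7A (0.954) and NOMO1 (0.931), and for HMMR DEPDC1 (0.999), SGO2 (0.997) and UNG (0.996). The libraries come from 5 groups, so the likeness is largely that of 5 group means. By Spearman correlation 1, 2, 0 and 1 of the 3 genes were again among the closest.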

How the data were processed

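Total RNA was depleted of ribosomal RNA and sequenced. The authors aligned reads to hg38 and assigned them to genes with HTSeq. The submitters' processing notes name TopHat and Bowtie2, the methods also name STAR, and which made these files and the strand setting are not given in the sources used here. The methods name an Ensembl release for the counting, which was not checked against the gene identifiers of the files. The authors deposited raw counts per gene for each of 10 libraries (19781445 to 42428986 in total). Their tables of comparisons hold fold changes and p-values and were not used.

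Genes were filtered with filterByExpr and tested in 1 fit of all libraries with 5 groups (5 residual degrees of freedom) by the quasi-likelihood F test of edgeR 4.0.16 in R 4.3.3, with TMM normalization and Benjamini-Hochberg adjustment over 16905 genes. The thresholds were an adjusted p below 0.05 and a log2 fold change beyond 1. DESeq2 1.42.0, other scalings and filters, and leaving out each library were alternatives. Of the gene identifiers, 98.9% were in GENCODE 44, from which names, coordinates, exon lengths and 3′ UTRs came. Levels per kb use the union of exons. Seed words were searched for guide positions 2 to 7.

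The 9 members and the 9 pathway lists were chosen with earlier results of these data known. Named were all members, and of each list the 2 largest rises and 2 largest falls called in a comparison with a mean normalised count of at least 100. Likeness named the 3 genes closest to HAS2, HAS3, CD44 and HMMR. Intervals of counts cover counting error only, and read pairs carried no molecular identifiers. Values of some list genes are not reported here.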

Additional observations from a re-analysis of the deposited data

Results flagged for a closer look

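The siGGGGGC difference from siNT1 was not the same at 48 h as at 24 h for several genes, by the interaction term of the same fit. For members it is a description with no test. The log2 fold change at 48 h minus that at 24 h was -1.34 (SE 0.178) for HAS2, -1.40 (SE 0.455) for HAS3 and -1.77 (SE 0.247) for HYAL2, the 3 members past both thresholds, beside 11.2% of all genes. For HAS3 the value ran from -1.86 to -1.07 over the alternatives, and it was no longer past the thresholds with total counts or when 1 of 4 libraries was left out (siNT1 or siGGGGGC replicate 2 at 24 h, siNT1 or siGGGGGC replicate 1 at 48 h). HAS2 also differed between the siNT1 groups, by 1.15 (SE 0.0967) from 24 to 48 h. Its siGGGGGC means at these times were 131 and 114 normalised counts.

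Among the pathway genes, 4 were higher and 5 lower by this term (edgeR quasi-likelihood test, Benjamini-Hochberg). PTX3 had 2.46 (adjusted p = 9.63e-08), ADAM17 1.18 (adjusted p = 6.72e-06), SPP1 1.11 (adjusted p = 0.00025) and UXS1 1.04 (adjusted p = 0.000345). VCAN had -2.10 (adjusted p = 7.92e-05), MMP14 -1.86 (adjusted p = 1.01e-07), HAPLN1 -1.76 (adjusted p = 0.00241), AURKA -1.43 (adjusted p = 7.08e-07) and TPX2 -1.04 (adjusted p = 1.55e-05). SPP1 and MMP14 also differed between the siNT1 groups, by log2 fold changes of 1.27 and 1.01 from 24 to 48 h (adjusted p = 2.8e-05 and 1.22e-05). For all these genes, time and the medium change at 24 h cannot be told apart. The SPP1, UXS1 and TPX2 values fell just short of the fold without 1 of the libraries, at 0.97, 0.93 and -0.98 at the least.

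HYAL3 lay above both controls in both siGGGGGC libraries at 24 h (log2 fold change 0.64, SE 0.324) and below both at 48 h (-0.07, SE 0.300). The normalised counts at 48 h were 23.5 and 24.9 beside 25.6 and 25.2 with siNT1, a difference far smaller than its SE. By the interaction term the HYAL3 value was -0.71 (SE 0.441), past neither threshold, so no change of direction is read from it.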

How the results depend on the processing

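No called member changed direction under any alternative. The count of members called with siGGGGGC at 24 h, 2 as reported, was 1 with total counts in place of TMM factors, 1 with genes of a mean count of at least 50, and 1 to 2 when a library was left out. HAS3, HYAL3 and CEMIP could not be tested at a mean of 50, which made the count between the siRNAs 3 in place of 5. Pathway genes called with siGGGGGC at 24 h, 2 as reported, were 1 with DESeq2, which gave HAS2-AS1 no adjusted p, 1 at a mean of 50, and 0 to 1 without a library. From 24 to 48 h in siNT1 there were 2, which became 4 with total counts and 1 to 2 without a library. Total counts moved the median of all genes by -0.16 with siGGGGGC and -0.15 with siGGCAGU at 48 h, and by 0.24 between the siNT1 times. Over all genes, the siNT1 times gave 258 calls by edgeR and 148 by DESeq2.

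The replicate numbers were not found to pair the libraries. Deviations of same-numbered libraries from their group means correlated between -0.295 and 0.113 over 10 pairs of groups. A fit with the replicate number as a block called 2, 2, 4 and 5 members, as reported, and 593, 3601, 3399 and 3849 genes in place of 629, 3636, 3430 and 3881. CEMIP, at 2 to 14 counts, is limited by depth.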
